A study of Rattus norvegicus with 4 samples.

Results

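The prefrontal cortex of depressive-like rats was set against that of control rats, probe by probe, on a pair of 1-colour Agilent arrays. A probe entered the comparison if it had 2 or more spots, if every spot was flagged as well above background on both arrays, and if the difference between the arrays had the same sign in all of its spots. Of 30367 probes on the array, 8878 met this rule. They comprised 7341 probes that could be named through RefSeq, which represent 6896 of the 15443 genes named on the array, and 1537 unnamed probes.

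The animals were male rats described only as normal; strain and age are not given in the sources used here. A forced swimming test, in which a rat is placed in water and its time spent immobile is scored, was given to 106 rats, so the controls had swum as well. Rats with depressive-like behaviour formed the depressive group, and rats with average immobility formed the control group. At 1 week after the test, 50 rats were killed under isoflurane and perfused through the heart with cold phosphate-buffered saline, a slice 1 mm thick was cut that spans 3.2 to 4.2 mm in front of the bregma, and equal amounts of RNA from 4 rats were pooled, so each group is 1 pool on 1 array.

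With 1 array per group there is no replicate, no test was made, and no statement below separates a difference between the states from a difference between these 2 pools. The error printed with a value is the standard error between spots of the same probe (SE), which covers spotting and scanning only. Signals are background-subtracted scanner units, and each difference is the log2 signal of the depressive array minus that of the control array, after the 75th percentile of each array was subtracted (3116 in the control pool, 3278 in the depressive pool). The file recorded for the prefrontal cortex control sample did not hold its values: the deposited value-table column of that sample correlated at 0.933 with it over 23207 probes, and at 0.99998 with the file recorded for the depressive cerebellum, and the table was followed. Read as recorded, 2529 probes would differ 2-fold or more, since a cerebellum array would then stand for the control. A tissue marker gave the same tissues as the table. Slc30a3, the synaptic vesicle zinc transporter of cortical neurons, gave 53153 and 52863 on the control and depressive arrays used here and 1144 and 1354 on the cerebellum arrays. Such markers place the arrays by tissue and cannot tell a control pool from a depressive one.

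A slice through the frontal pole holds neurons, glia and vessels, and also the leptomeninges, the thin membranes on the brain surface, whose fibroblasts make collagens and retinoic acid. Perfusion clears most blood, but red blood cells that remain carry large amounts of globin mRNA. Interferons are cytokines that act through a complex of transcription factors that includes STAT2 and IRF9 and binds the interferon-stimulated response element in the promoters of antiviral genes, and many cells of the brain hold a low level of such transcripts at rest. In a bulk slice, fewer cells of a type and less RNA per cell cannot be told apart.

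Most probes differed little between the pools. Of the 8878 probes, 7957 (89.6%) differed by less than 1.2-fold, and the median absolute log2 difference was 0.09. At 2-fold or more 32 probes (0.36%) differed, 23 (0.259%) higher and 9 (0.101%) lower on the depressive array. At 1.5-fold or more 143 probes (1.61%) differed, 103 higher (1.16%) and 40 lower (0.451%). The sign itself carries less: 46.0% of probes were above 0 and 54.0% below, with a median of -0.03. In genes, each represented by its brightest probe that met the rule, 24 of 6896 (0.348%) reached 2-fold, 18 higher (0.261%) and 6 lower (0.087%). At 1.5-fold were 116 (1.68%), 85 higher (1.23%) and 31 lower (0.45%). A brighter probe outside the rule can differ: for Rps16 it gave -0.27, and the probe used gave 0.75.

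**Figure D1:**
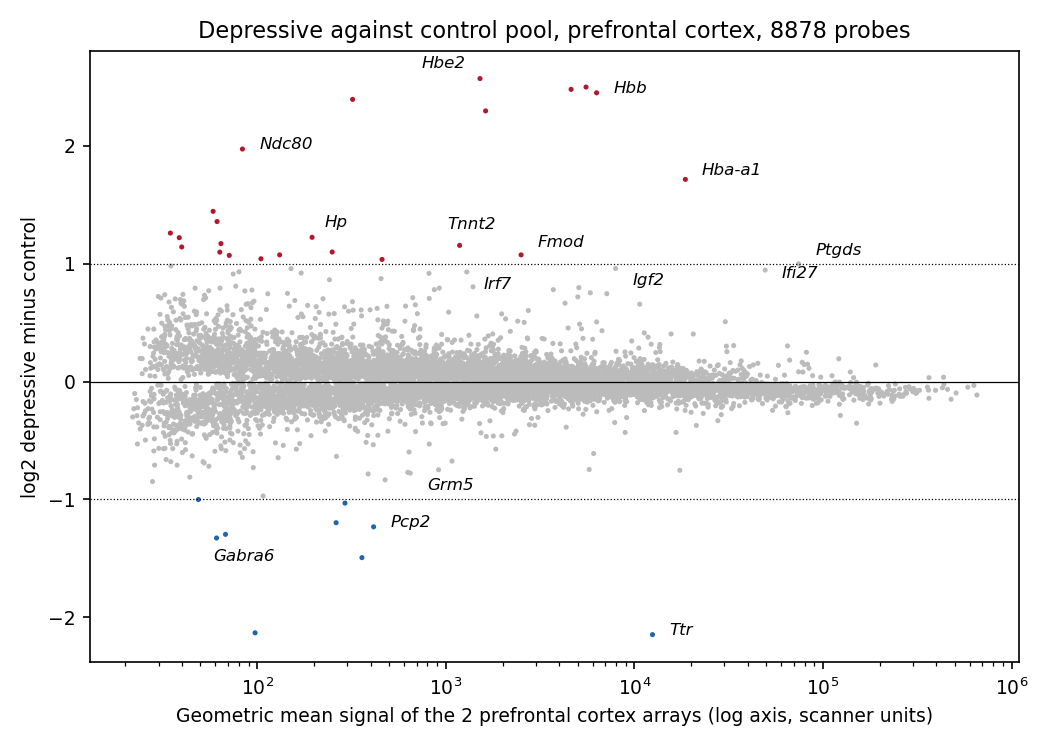
Log2 difference of the depressive minus the control array (vertical axis) against the geometric mean signal of both prefrontal cortex arrays (horizontal axis, log scale, scanner units), 1 point for each of 8878 probes. Red and blue points lie at 2-fold or more (23 higher, 9 lower), dotted lines mark 2-fold; the scatter widens towards low signals, and the globin probes and Ttr stand apart at high ones.

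Precision depended on brightness. The 13209 probes with 2 or more spots well above background were ordered by signal and cut into 4 bins of equal size. The median SD between spots was 0.129 on the log2 scale in the dimmest bin, 0.060 and 0.037 in the middle ones and 0.024 in the brightest. Of the 32 probes at 2-fold, 16 lay in the dimmest bin, 7 and 4 in the middle ones and 5 in the brightest. Of the 143 at 1.5-fold, 84 lay in the dimmest bin. Requiring both arrays to exceed the 25th percentile of well-measured probes (signals of 158.3 and 158.9) left 15 at 2-fold and 60 at 1.5-fold, and a model-based background correction (normexp) left 15 and 55.

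The beta-like globin genes that met the rule had the largest differences, and each globin gene that met it was higher on the depressive array. Hbe1, another globin gene, was not well above background (4.16 and 3.98). Hba-a3, with 1 spot, gave 5.93 and 39.9 (2.68) and was not well above background on both arrays. Hba-a1, which encodes the alpha chain of haemoglobin, gave a signal of 10024 in the control pool and 34651 in the depressive pool, a log2 difference of 1.72 (SE 0.00, 2 spots), while a dimmer Hba-a1 probe with 1 spot gave 232.0 and 1309 (2.42). Hbb-b1, a beta chain, gave 2271 and 13521, and 1906 and 11193 on a second probe, which is 2.50 and 2.48. Hbb gave 2628 and 15123 (2.45), and a dimmer probe for it gave 136.3 and 754.2 (2.40). Hbb-bs (2.30) and Hbe2 (2.57) were close to these. The beta-like globins are near-identical copies, their probes may bind each other's transcripts, and the 6 probes are not independent measurements of 4 genes.

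Alas2, which starts haem synthesis in erythroid cells, gave 71.1 and 154.1 (1.04, SE 0.06). Other erythroid transcripts were lower, near 0 or too dim to measure. Ahsp, the chaperone of free alpha globin, gave 781.3 and 612.2 (-0.43), and Bpgm, which makes the haemoglobin regulator 2,3-bisphosphoglycerate, gave 33266 and 33369 (-0.07). Slc4a1, the anion exchanger of the red cell membrane, was not well above background (26.0 and 29.0), nor were the membrane genes Epb42 (4.89 and 4.30) and Rhag. Of 13 red blood cell genes on the array, 8 met the rule, 6 above 0 and 2 below, with a median of 2.01. White blood cell genes lay on both sides of 0. Of 19 on the array 6 met the rule, 3 above 0 and 3 below, with a median of 0.00, and the neutrophil calcium-binding proteins S100a8 (114.1 and 79.4) and S100a9 (157.5 and 105.8) were lower, by 0.60 and 0.65. The contribution of blood left in the slices was not tested.

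Genes of meningeal fibroblasts were higher on the depressive array as a group. Of 31 listed genes on the array, 29 met the rule, 26 above 0 and 3 below, where 44.9% of all 6896 genes were above 0 and 55.1% below. The median was 0.56, against -0.03 over all genes. At 1.5-fold or more 14 of the 29 were higher, against 1.23% of all genes, and none was lower. Among the 42 lists examined only that of red blood cells had a median further from 0. The lists were chosen with earlier results of these data known, so such shares and ranks, here and below, only describe these arrays.

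Fmod, a small proteoglycan that binds collagen fibrils, gave 1684 and 3734 (1.08, SE 0.02). Ptgds, the prostaglandin D2 synthase that arachnoid cells secrete, gave 51142 and 107600 (1.00, SE 0.02), and Igf2, a growth factor of the meninges and choroid plexus, gave 5558 and 11370 (0.96, SE 0.02). Both spots of each lay within 0.02 of their mean. Ogn, another small proteoglycan, gave 326.8 and 630.2 (0.87). Aldh1a2, the enzyme that makes retinoic acid in the meninges, gave 174.7 and 334.4 (0.86).

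The fibrillar collagens were higher together. Col1a2 gave 3753 and 6861 (0.80), Col1a1 gave 623.9 and 1070 (0.71) and Col3a1 gave 509.1 and 877.3 (0.71), and Pcolce, which activates the protease that trims procollagen, gave 2167 and 3462 (0.60). Transporters of the arachnoid barrier were also higher: the organic anion transporter Slc22a6 gave 1029 and 1890 (0.80), its relative Slc22a8 gave 3707 and 5345 (0.45), and the amino acid transporter Slc6a20a gave 281.2 and 450.8 (0.61). Transcription factors of these cells lay higher by less or were dim, with Osr1 at 41.3 and 74.2 (0.77) and Foxc1 at 1026 and 1279 (0.25). Nupr1, a stress-induced chromatin protein, gave 577.9 and 1149 (0.92) and Igfbp2, which binds insulin-like growth factors, gave 2764 and 4995 (0.78).

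The 3 members below 0 were Serpinf1 (1066 and 1038, -0.11), Fn1, the matrix protein fibronectin (2950 and 2896, -0.10), and Mgp, an inhibitor of calcification (3473 and 3623, -0.01). Foxc2, a relative of Foxc1 outside the list and chosen after its values were seen, gave 85.7 and 151.1 (0.75), and Twist1, a mesenchymal transcription factor, gave 24.7 and 60.5 (1.22), but both are dim. Tnnt2, the cardiac troponin T gene, gave 773.4 and 1813 (1.16, SE 0.01), and Cpz, a secreted carboxypeptidase that binds Wnt proteins, gave 312.6 and 674.6 (1.04, SE 0.16).

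How much meninges each pool held is not recorded, and its part in these values was not tested. The same probes were brighter on the cerebellum arrays and differed less there: Ptgds gave 304850 and 362320 (0.13), Fmod 9745 and 14117 (0.41), Igf2 47382 and 55247 (0.10) and Cpz 2687 and 2625 (-0.15). Over the 29 genes the cerebellum median was 0.15, with 25 above 0. Genes of other vascular and border cells differed by less in the prefrontal cortex. Pericyte and smooth muscle genes had a median of 0.14 with 13 of 15 above 0, and endothelial genes 0.09 with 14 of 17 above 0. Of 6 border macrophage genes 4 were above 0, among them the scavenger receptor Cd163 (77.0 and 112.3, 0.47), and the chemokine Pf4 was lower (370.4 and 296.0, -0.40).

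**Figure D2:**
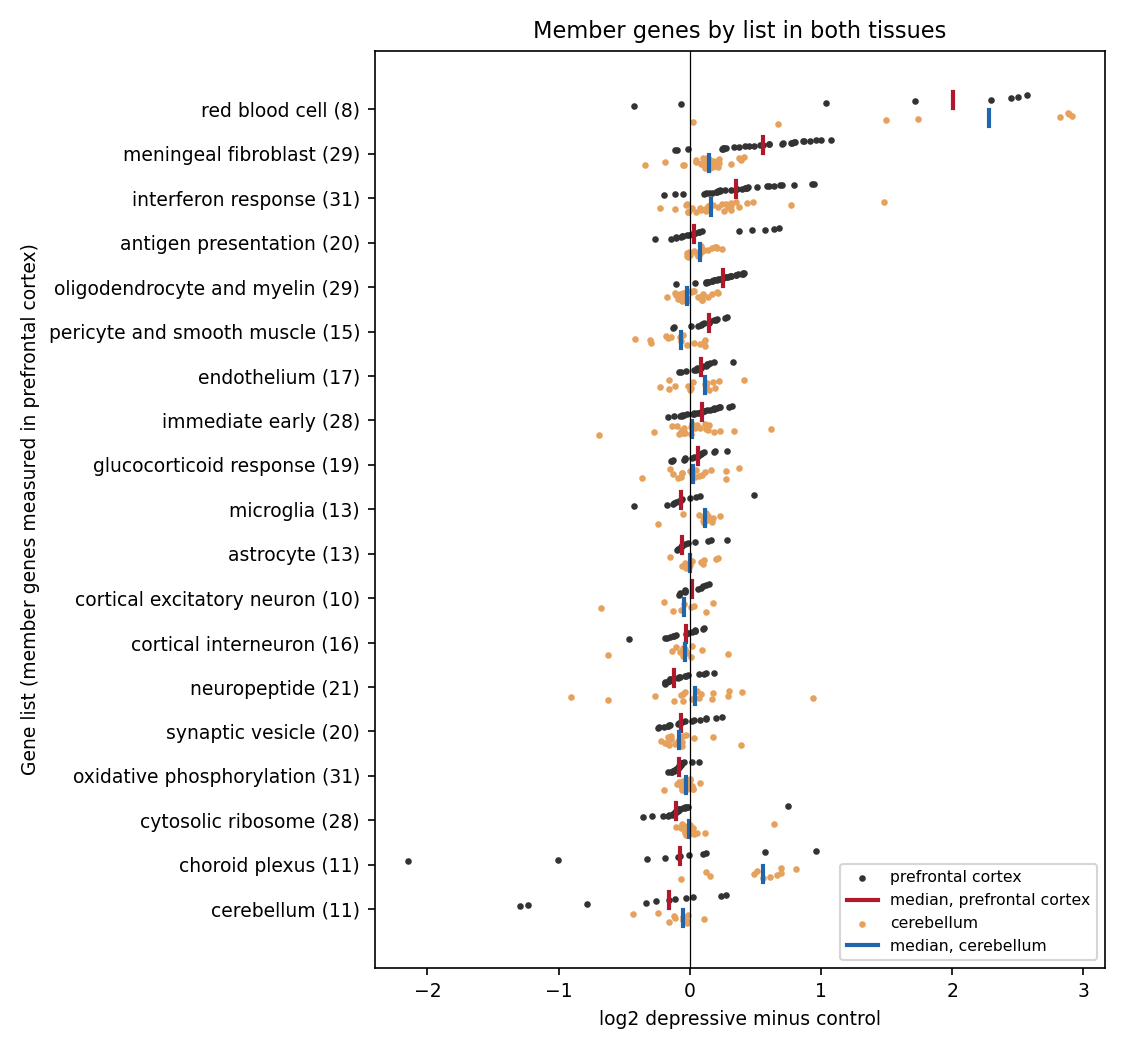
Log2 difference of depressive minus control (horizontal axis) for each gene of 19 lists, in the prefrontal cortex (dark points, red bar for the median) and for the same probes in the cerebellum (orange points, blue bar). The number of prefrontal cortex genes stands in brackets; the medians of red blood cell, meningeal fibroblast, interferon response and myelin genes were 2.01, 0.56, 0.36 and 0.25 in the prefrontal cortex.

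Interferon-response genes were higher on the depressive array as a group, by smaller amounts. Of 43 listed genes on the array 31 met the rule, 28 above 0 and 3 below, with a median of 0.36, and 8 of the 31 were higher at 1.5-fold or more, against 1.23% of all genes. A gene enters only if its spots share a sign, and when spots of either sign were allowed the median over 36 genes was 0.25, with 31 above 0, where 46.6% of all genes so treated were above 0. The lead was taken by Ifi27, an interferon-induced protein of mitochondria and the nuclear envelope, at 34688 and 70325 (0.95, SE 0.01). Irf7, the transcription factor that amplifies type I interferon production, gave 912.6 and 1830 (0.93, SE 0.02).

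The promoters of 4 of these genes are shown because they hold matches to the element that interferon-activated factors are known to bind. Each run covers 250 bases before to 50 bases after the gene start in RefSeq for the rat assembly GRCr8, is written 5′ to 3′ on the gene's strand, and has matches to the core of the interferon-stimulated response element (GAAANNGAAA, or TTTCNNTTTC on the other strand) in capitals.
Ifi27 (chr6:128355062-128355361, plus strand): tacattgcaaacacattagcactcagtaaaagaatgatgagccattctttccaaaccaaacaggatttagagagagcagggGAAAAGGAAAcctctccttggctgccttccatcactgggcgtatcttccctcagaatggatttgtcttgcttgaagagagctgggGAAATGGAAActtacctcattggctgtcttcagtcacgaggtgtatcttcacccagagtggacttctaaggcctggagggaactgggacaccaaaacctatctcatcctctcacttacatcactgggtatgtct
Irf7 (chr1:205799974-205800273, minus strand): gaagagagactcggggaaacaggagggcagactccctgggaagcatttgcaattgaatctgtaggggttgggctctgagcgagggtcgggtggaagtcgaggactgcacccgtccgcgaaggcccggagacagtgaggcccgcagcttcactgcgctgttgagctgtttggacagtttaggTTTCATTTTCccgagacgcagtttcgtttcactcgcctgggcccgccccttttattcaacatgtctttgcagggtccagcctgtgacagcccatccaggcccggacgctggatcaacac
Oas1a (chr12:41330216-41330515, plus strand): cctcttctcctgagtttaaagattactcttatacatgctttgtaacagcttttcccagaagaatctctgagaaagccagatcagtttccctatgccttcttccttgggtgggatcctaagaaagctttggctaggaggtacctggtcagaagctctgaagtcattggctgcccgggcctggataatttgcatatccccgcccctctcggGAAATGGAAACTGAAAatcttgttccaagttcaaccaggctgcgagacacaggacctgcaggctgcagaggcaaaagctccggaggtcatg
Ifit3 (chr1:241527076-241527375, plus strand): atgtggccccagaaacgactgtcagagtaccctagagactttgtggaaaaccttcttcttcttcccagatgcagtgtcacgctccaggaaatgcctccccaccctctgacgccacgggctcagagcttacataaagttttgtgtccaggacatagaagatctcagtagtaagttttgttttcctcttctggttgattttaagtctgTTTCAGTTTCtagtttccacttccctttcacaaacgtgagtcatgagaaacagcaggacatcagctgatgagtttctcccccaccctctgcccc

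Promoters were found in the table for 24 of the 31 interferon genes, and 16 of these (66.7%) held a match on either strand. Among all 27457 promoters of the table, 1034 (3.77%) held one, and among 5591 promoters of genes in the comparison 170 (3.04%). The genes with a match lay between 0.12 and 0.95 with a median of 0.41. The 8 without one lay between -0.20 and 0.36 with a median of 0.16. The list is made of genes known to respond to interferon, so a share above that of all promoters follows from its choice. That share says nothing about these pools, and the difference between the medians was not tested. A match is a description of these letters in this window, and no binding was measured.

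Genes with antiviral functions spread over the range. Isg15, a ubiquitin-like protein attached to other proteins, gave 683.8 and 1247 (0.79, SE 0.09), and Usp18, the protease that removes it, gave 255.1 and 408.5 (0.61). Oas1a, which makes the messenger that activates RNase L, gave 170.7 and 292.3 (0.70, SE 0.14). Ifit3 and Ifit2, related interferon-induced genes, gave 121.6 and 206.1 (0.69, SE 0.11), and 169.4 and 267.9 (0.59). Rsad2, the antiviral enzyme viperin, gave 448.9 and 635.0 (0.43), and the membrane protein Ifitm3, which blocks viral entry, gave 565.5 and 803.1 (0.43).

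The transcription factors through which interferon signals were nearer 0. Stat2 gave 5738 and 5583 (-0.11), Irf9 gave 308.6 and 402.7 (0.31) and Irf1 gave 1802 and 1832 (-0.05). Below the list median of 0.36 were also the antiviral GTPase Mx1 (1458 and 1772, 0.21), the RNA-activated kinase Eif2ak2 (269.0 and 331.6, 0.23, over 10 spots) and the RNA sensor Ifih1 (46.6 and 56.4, 0.20). Outside the rule were 5 genes with spots of both signs, among them Mx2 (43400 and 46850) and Cmpk2 (4126 and 4325), and Ifit1, which was not well above background (4.98 and 8.36). The range of interferon genes therefore ran from -0.20, for Tor3a, to nearly 2-fold higher, for Ifi27. In the cerebellum 23 of 30 of the same genes were above 0, with a median of 0.16, and Ifi27 gave 22136 and 67206 (1.48).

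Genes of antigen presentation lay on both sides of 0. The major histocompatibility complex class II genes RT1-Bb, RT1-Da and RT1-Db1 were higher. RT1-Bb gave 246.7 and 415.1 (0.68), RT1-Da 115.5 and 189.4 (0.64) and RT1-Db1 191.8 and 300.1 (0.57), and Cd74, the invariant chain that escorts class II molecules, gave 565.2 and 826.5 (0.47). Probes with 1 spot gave less for RT1-Bb (0.18) and RT1-Db1 (0.37). RT1-DMa (3450 and 3286, -0.14) and RT1-DMb (2118 and 2071, -0.10), which load peptides onto class II molecules, were slightly lower. The class I heavy chains RT1-A1 (13798 and 14907) and RT1-A2 (869.2 and 962.6) differed by 0.04 and 0.07, and their light chain B2m by -0.02, while RT1-N3 (0.38) and RT1-M3-1 (-0.27) lay further from 0. The RT1 genes are a multigene family with similar copies, and their probes may share targets. Over the 20 genes 11 were above 0, with a median of 0.03. Microglial genes, whose cells can carry class II, had a median of -0.07 with 4 of 13 above 0. Cx3cr1, the microglial fractalkine receptor, stood apart at 4218 and 6221 (0.49), while Itgam, the integrin CD11b, was lower at 385.3 and 302.3 (-0.42), and P2ry12 (3601 and 3626), Aif1 (8619 and 8666) and C1qa lay between -0.06 and -0.08.

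Genes of oligodendrocytes and myelin were higher by small amounts, between -0.11 and 0.41. Of 31 on the array 29 met the rule, 28 above 0 and 1 below, with a median of 0.25. None reached 1.5-fold by its brightest probe that met the rule. Mog, a protein of the outer myelin surface, gave 1504 and 2093 (0.40, SE 0.01). Apod, a lipid carrier of oligodendrocytes, gave 9538 and 13358 (0.41), and Ermn, a cytoskeletal protein of myelinating cells, gave 183.5 and 253.9 (0.40).

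Probes of a single gene did not always agree. Mobp, a small basic protein of compact myelin, gave 4586 and 6220 (0.37) on its brightest probe and 3321 and 5540 (0.67) on another. Mbp, among the brightest probes in the comparison, gave 419650 and 452820 (0.04) on that probe and 1377 and 1367 (-0.08) on a dimmer one. Transcription factors of the lineage differed in direction, with Sox10 at 3248 and 4017 (0.23), Myrf at 395.7 and 473.1 (0.18) and Olig2 at 4002 and 3906 (-0.11). Genes of oligodendrocyte precursors had a median of 0.03 (3 of 5 above 0). In the cerebellum the same 29 genes had a median of -0.02 with 12 above 0, where Mog gave 4170 and 4620 (0.03). The share of white matter in each slice is not recorded, and its part was not tested.

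On the lower side the largest difference was that of Ttr, which encodes transthyretin, the thyroid hormone carrier made by the choroid plexus. Ttr gave 25617 in the control pool and 6076 in the depressive pool (-2.15, SE 0.02), and 681800 and 706340 on the cerebellum arrays (-0.07). Folr1, the folate receptor of the same epithelium, gave 67.3 and 35.4 (-1.002, SE 0.03), against 5594 and 8936 in the cerebellum (0.56). Other choroid plexus genes differed in direction. Calml4, a calmodulin-like protein, gave 314.9 and 264.5 (-0.32), and 177.2 and 188.4 (0.02) on a probe with 1 spot. Kcne2, a potassium channel subunit, gave 347.0 and 343.1 (-0.09), Enpp2, the enzyme autotaxin, gave 4016 and 4591 (0.12), and the potassium channel Kcnj13 gave 137.1 and 214.6 (0.57). The water channel Aqp1 gave 105.7 and 216.1 over 10 spots (0.96, SE 0.05), with every spot between 0.74 and 1.17.

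Of 20 choroid plexus genes on the array 11 met the rule, 4 above 0 and 7 below, with a median of -0.07. Of the 9 outside it, Sostdc1, a secreted Wnt and bone morphogenetic protein inhibitor, gave 64.7 and 25.8, and Otx2, a transcription factor of the plexus, gave 24.99 and 10.99. Neither was well above background in all spots, and both lay on the side of Ttr. The amount of choroid plexus in each slice was not tested.

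Genes typical of the cerebellum were among those with the lowest values. Gabra6, the GABA receptor subunit of cerebellar granule cells, gave 103.8 and 44.4 (-1.30, SE 0.09), and 56442 and 60299 on the cerebellum arrays. Pcp2, a Purkinje cell protein, gave 619.5 and 277.1 (-1.23, SE 0.01), against 156490 and 152460 in the cerebellum. Cbln1, the synaptic organiser released by granule cells, gave 496.0 and 302.9 (-0.78, SE 0.01), against 106530 and 114040. Car8, a Purkinje cell protein that binds the inositol trisphosphate receptor, gave 1877 and 1567 (-0.33), against 125020 and 131280. For these genes the prefrontal cortex signals were small beside those of the cerebellum, and each was lower in the depressive pool. The list was not uniform: of 11 genes 8 were below 0, with a median of -0.16, while Gabrd, which the cortex also expresses, gave 15103 and 16140 (0.02). A trace of cerebellar RNA on the control array was not tested.

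**Figure D3:**
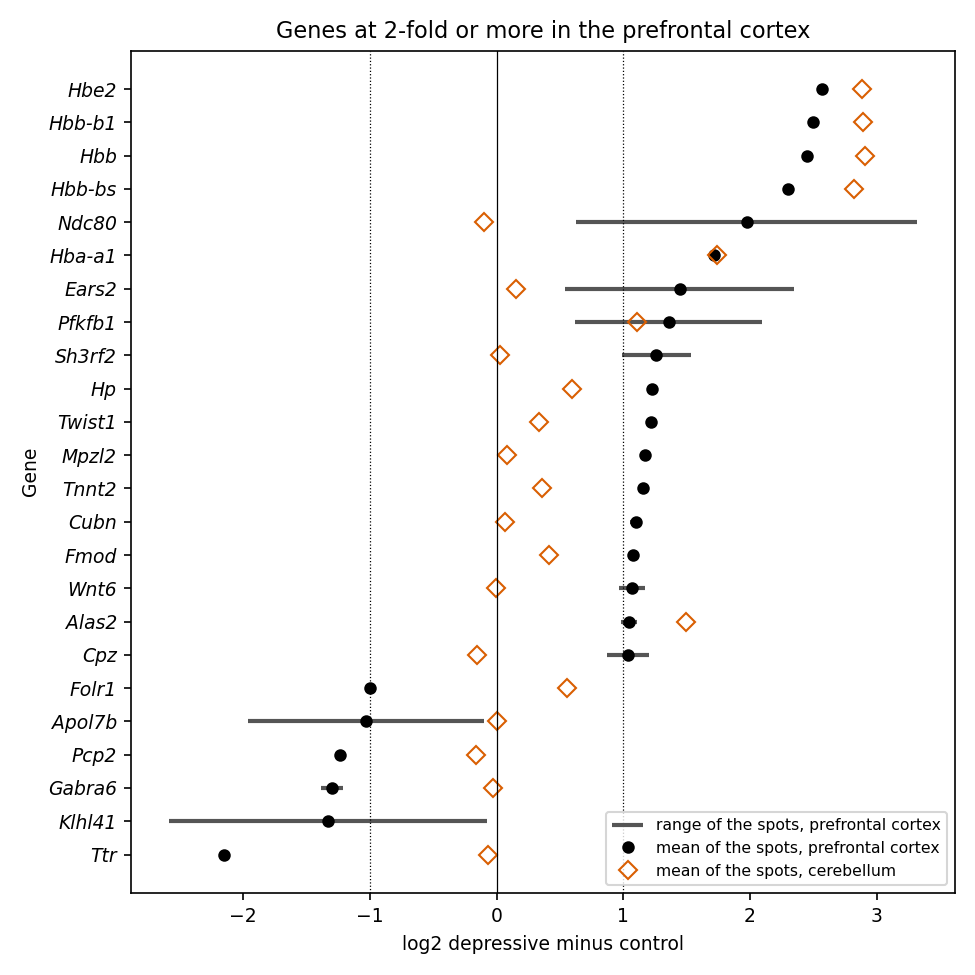
The 24 genes at 2-fold or more, by log2 difference of depressive minus control (horizontal axis). Black points are means of the 2 spots in the prefrontal cortex, grey bars the range of those spots and open diamonds the same probe in the cerebellum; the bars of Ndc80, Ears2, Pfkfb1, Apol7b and Klhl41 are wide, and the globins lie far to the right in both tissues.

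Some genes at 2-fold rest on 1 of 2 spots. Ndc80, a kinetochore protein, gave 41.1 and 169.8 (1.97), but its spots gave 0.63 and 3.32, and 8 spots next to them on the array also differed 2-fold the same way. The spots of Ears2, a mitochondrial tRNA synthetase, gave 0.54 and 2.35, those of Apol7b -0.10 and -1.96 and those of Klhl41, a muscle protein, -0.07 and -2.59. A second probe of Apol7b, with 1 spot, gave 94.7 and 178.0 (0.84), in the other direction. Pfkfb1, which sets the level of fructose 2,6-bisphosphate, had spots at 0.62 and 2.10 and gave 1.11 in the cerebellum. Just outside the rule, with spots of both signs, were Prr19 (-4.26 and 0.63), Cks2 (-0.36 and 2.66) and Otud7b (-1.99 and 0.25).

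Of the other genes at 2-fold, Hp, the haemoglobin scavenger haptoglobin, gave 124.7 and 306.4 (1.22, SE 0.03), and Mpzl2, an epithelial adhesion protein, gave 41.8 and 98.9 (1.17). Cubn, an endocytic receptor, gave 42.2 and 95.1 (1.099), Wnt6 gave 47.8 and 105.7 (1.07) and Sh3rf2 gave 21.8 and 55.0 (1.26), with spots at 0.99 and 1.53. Mpzl2, Cubn, Wnt6, Twist1, Ears2, Pfkfb1, Alas2 and Klhl41 lie below the signal limit of the rule for named genes, and were named after their values were seen. Alb, the serum albumin gene, gave 2297 and 2371 (-0.03), and the complement genes C4a (5161 and 7711, 0.51) and Serping1 (1580 and 2475, 0.57) were higher while C3 (1124 and 999.1, -0.24) was lower.

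Among other lower genes was Grm5, the metabotropic glutamate receptor 5, at 827.1 and 507.4 (-0.78, SE 0.01). In the cerebellum Grm5 was not well above background in all spots, and no value is given for it. Prss12, a synaptic protease, gave 620.9 and 366.2 (-0.83, SE 0.12), Creg1, a lysosomal glycoprotein, gave 2191 and 1548 (-0.57), and Rftn1, a lipid raft protein, gave 766.1 and 532.1 (-0.60). The cilium gene Rsph1 gave 1329 and 875.5 (-0.68), and was higher in the cerebellum (970.8 and 1378, 0.38). Spag6l, of the same axonemal apparatus, gave 1743 and 1356 (-0.44), but 218.6 and 223.5 (-0.04) on a probe with 1 spot. Both are in the list of ependyma, the ciliated cells that line the ventricles, where Tekt1 (0.46) and Tekt4 (0.08) were higher. Of 6 genes of that list that met the rule, 2 were above 0 and 4 below. With spots of either sign 5 of 9 were above 0. RT1-M6-1 gave 801.2 and 493.7 (-0.77), while a second probe gave 4163 and 4361 (-0.01). Tnn, the matrix protein tenascin-N, gave 319.9 and 216.6 over 8 spots, which ranged from -0.94 to -0.27, and thyroglobulin (Tg) gave 192.0 and 135.7 (-0.57).

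Neuronal genes of the cortex differed little. Excitatory neuron genes lay between -0.08 and 0.14 (10 genes, median 0.01), with the vesicular glutamate transporter Slc17a7 at 1248 and 1430 (0.12) and the calmodulin-binding Nrgn at 94623 and 97074 (-0.04). Of 6 upper layer genes 5 were below 0 (median -0.10), and of 9 deep layer genes 6 were above 0 (median 0.15, but -0.04 with the normexp correction). When spots of either sign were allowed, the upper layer median was -0.03 over 10 genes and the deep layer median 0.09 over 13. Of 16 interneuron genes 10 were below 0, with a median of -0.03. Calb2, the calcium buffer calretinin of one interneuron class, was furthest at 2045 and 1561 (-0.46). The same Calb2 probe was brighter on the cerebellum arrays (118690 and 130040, 0.01), and the part of cerebellar RNA in this value was not tested. Pvalb, the parvalbumin gene of another class, gave 36105 and 37636 (-0.01).

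Neuropeptide genes were mostly below 0, 17 of 21, with a median of -0.12 and a narrow range, from -0.19 to 0.18. Allowing spots of either sign gave 18 of 25 below 0, with a median of -0.08. Somatostatin (Sst) gave 68768 and 63453 (-0.19), neuropeptide Y (Npy) 46504 and 44140 (-0.15), and cholecystokinin (Cck), among the brightest genes, 491060 and 465330 (-0.15). Receptors for glutamate (5 of 14 above 0, median -0.06) and GABA (9 of 12 above 0, median 0.04) lay near the median of all genes. Postsynaptic density genes were below 0 in 15 of 21 (median -0.07), where 55.1% of all genes were, with the scaffold Dlg4 at 627.7 and 522.6 (-0.34). Synaptic vesicle genes were below 0 in 13 of 20 (median -0.07), near that share, while Snap25, which drives vesicle fusion, gave 73082 and 91353 (0.25). Without the same-sign rule the postsynaptic density median was -0.06 over 26 genes and the synaptic vesicle median -0.02 over 25.

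Of the genes in lists chosen for the biology of stress and mood none reached 1.5-fold, which is near the 1.68% of all genes that did. Of 28 immediate early genes 21 were above 0, where 44.9% of all genes were, with a median of 0.09. Arc, the synaptic plasticity gene, gave 27028 and 35011 over 10 spots (0.30), and Fos gave 451.5 and 492.2 (0.05). Glucocorticoid-response genes had a median of 0.06 (13 of 19 above 0): the chaperone Fkbp5 gave 7196 and 7909 (0.06), Tsc22d3 gave 5836 and 5941 (-0.05), and the receptor gene Nr3c1 gave 108.3 and 129.9 (0.19), but 702.4 and 741.2 (0.00) on a brighter probe with spots of both signs. Neurotrophin and growth factor genes had a median of 0.04 (10 of 17 above 0). Serotonin genes had a median of -0.06, from the receptor gene Htr1a at 71.6 and 60.4 (-0.32) to Htr1f at 27.6 and 37.8 (0.38), and dopamine and noradrenaline genes -0.11, and the members of both that lay furthest from 0 were dim. Allowing spots of either sign brought these medians to -0.03 and -0.02. The medians of immediate early, glucocorticoid-response and neurotrophin genes were then 0.07, 0.03 and 0.01.

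Genes of ribosomes and respiration were below 0 almost throughout, by small amounts. Of 28 cytosolic ribosome genes 27 were below 0 (median -0.11), of 31 oxidative phosphorylation genes 29 (median -0.08), and of 14 housekeeping genes 13 (median -0.10). Quantile normalization brought these medians to -0.05, -0.05 and -0.06, so their size depends on the scaling. The exception among ribosomal genes was Rps16, at 5378 and 9489 (0.75), which gave 0.64 in the cerebellum; a second Rps16 probe, with 1 spot, gave 102190 and 89102 (-0.27). Astrocyte genes lay near 0 as well (median -0.06 over 13), with Aqp4, the water channel of astrocyte endfeet, at 33723 and 39146 (0.14), and at 1957 and 1897 (-0.12) on another probe.

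The cerebellum of the same groups was measured on the other 2 arrays of the slide, and 8440 of the probes were well above background there. Of these, 28 (0.332%) reached 2-fold and 104 (1.23%) reached 1.5-fold in the cerebellum. Above 0 were 40.2% of the probes and 41.4% of genes, each gene by its brightest prefrontal cortex probe that met the rule. Of the 143 probes at 1.5-fold in the prefrontal cortex 125 were measured in the cerebellum, where 94 lay on the same side of 0. This was so for 75 of 97 higher and for 19 of 28 lower probes. Of all 8440 probes, 40.2% lay above 0 there and 59.8% below. At 1.5-fold in both tissues were 21 probes, of which 17 were higher and 3 lower in each tissue, and the probe of Cldn3 had opposite signs.

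The 17 probes higher in both comprised 7 of haemoglobin genes and those of Alas2, Ifi27, Aqp1, Hp, Rps16, Pfkfb1, Rpe65, Ccdc40, Clca1 and Ccdc77. Those lower in both were Ahsg (64.8 and 42.3, -0.69) and a pair of unnamed probes, of which A_44_P288015 gave 588.1 and 219.5 (-1.50) in the prefrontal cortex and 706.6 and 332.1 (-1.21) in the cerebellum. Across the 8440 probes the differences in the tissues had a Pearson correlation of 0.35 and a Spearman correlation of 0.24, and without the red blood cell genes these were 0.24 and 0.24. This is a description across probes of the same slide, which are not independent, and the labels do not say whether the same 4 rats gave both tissues of a group.

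**Figure D4:**
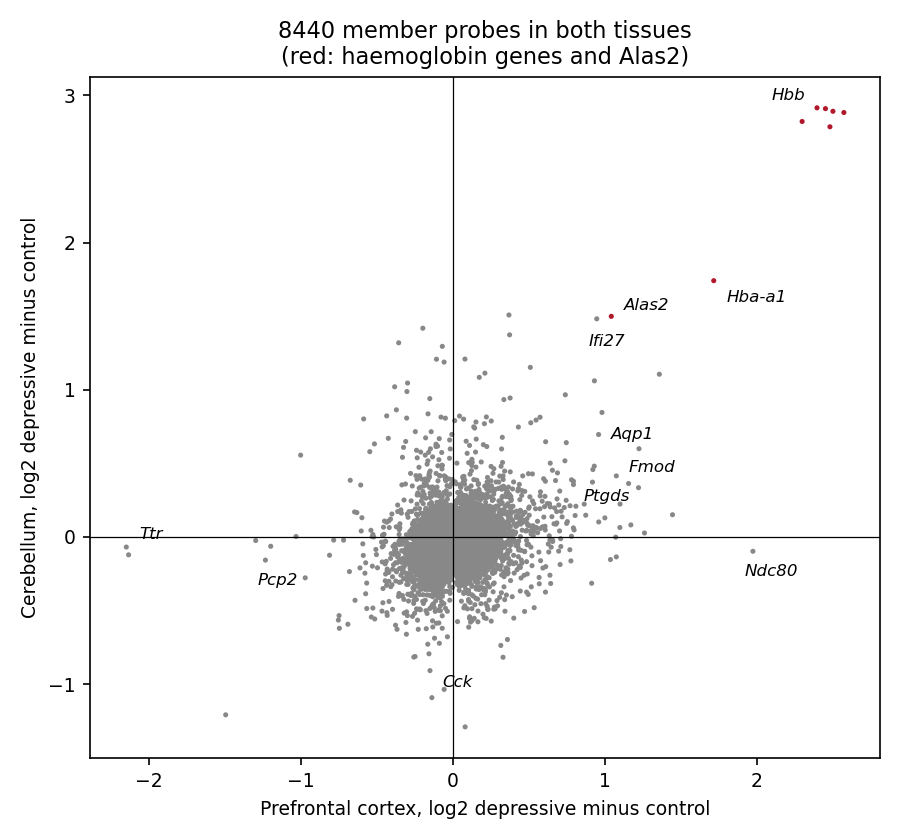
Log2 difference of depressive minus control in the cerebellum (vertical axis) against that in the prefrontal cortex (horizontal axis) for 8440 probes well above background in both tissues. Probes of haemoglobin genes and Alas2 (red) lie at the upper right, while Ttr, Pcp2 and Ndc80 lie far from 0 in the prefrontal cortex alone.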

How the data were processed

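RNA of 4 pools (2 tissues, 2 states, 1 array each, all on 1 slide) was measured, and the 2 prefrontal cortex arrays were compared. Per the file headers, the authors scanned and extracted the arrays with Agilent Feature Extraction 10.7.1.1 (protocol GE1_107_Sep09), and the deposited scanner files hold a background-subtracted processed intensity for each spot with flags for outliers and for signal well above background. The header names the build rn4. The deposited value table, read here as a linear intensity of 23207 probes (median 0.332 in both prefrontal cortex columns), has no stated scale or centring. It was used to match files to samples, each column correlating at r of 0.99989 or more with 1 file, and as an alternative. Groups came from the sample titles; the description fields of both depressive samples name the other tissue.

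Outlier and control spots were left out, a probe took the mean log2 intensity of its spots, and the 75th percentile of each array was subtracted. Of 22031 probes with a RefSeq accession, 18355 found a symbol in the RefSeq table of GRCr8. A gene with several probes in the comparison (440 genes) is represented by the brightest. Of 17229 probes with 2 or more spots, 13209 were well above background in all spots on both arrays, 76.1% and 77.0% of all probes being so flagged by array, and 4331 of these were dropped for spots of both signs. The sign rule kept 70.6% of probes with 2 spots and 34.8% of those with 6 to 10. The number of arrays limits the precision, and nothing measures the spread between pools.

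Named genes are the 12 largest values on each side among genes with a usual symbol and, on the brighter array, a signal at or over the 25th percentile of those flagged well above background, up to 5 members furthest from 0 of each list described, and the 10 brightest. Further list members are named for their role, with their values known. The rule of the comparison and the 42 lists (948 distinct genes) were chosen with earlier results of these data known. The comparison step recovered set differences in simulated data, which held independent spot noise only. Those data had no shared error of neighbouring spots and no spread between pools, so they cannot show how these affect the calls. Alternatives were background correction with limma 3.58.1 in R 4.3.3 (normexp, offset 50, on median signals), and quantile and median scaling. Further alternatives were the value table, signal and flag limits, outliers kept, probes with 1 spot, spots of either sign, gene means and the files as recorded. Other work used Python 3.11.15, numpy 2.4.6, pandas 2.3.3 and matplotlib 3.10.9. Promoters came from RefSeq (GRCr8), and no coordinates of the probes are printed.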

Additional observations from a re-analysis of the deposited data

Results flagged for a closer look

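With 1 array a group, differences between the tissues could not be tested, and those given here are values of opposite sign. Cldn3, which encodes a tight junction protein, was the single gene at 1.5-fold or more in opposite directions, at 81.5 and 57.0 (-0.59) in the prefrontal cortex and at 0.80 in the cerebellum. The ependyma list, genes of the ciliated cells that line the ventricles, had a median of -0.18 in the prefrontal cortex and 0.40 in the cerebellum, where all 6 genes were above 0. With spots of either sign the prefrontal cortex median was 0.035 (5 of 9 above 0), so the opposite sign depends on that rule. The border macrophage list had medians of 0.24 and -0.10, and the olfactory bulb list medians of -0.12 and 0.21, the latter over 5 genes. With spots of either sign the olfactory bulb median in the prefrontal cortex was -0.03 over 10 genes. That of border macrophages stayed at 0.24. The difference between the tissues was not tested for any of these.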

How the results depend on the processing

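No paired analysis was possible because each group has 1 array. The count at 2-fold, 32 probes, was 15 with normexp, 15 with a limit on dim signals, 63 with probes of 1 spot added and 2529 with files as recorded, and between 22 and 35 under the other settings. The count at 1.5-fold, 143, was 55, 60, 329 and 4716 under the same 4 settings, and between 108 and 147 under the others. The lowest of each came from leaving out probes with a neighbouring spot that differed the same way, chosen after seeing the data. Adding probes of 1 spot gave 61.1% higher at 1.5-fold, against 72.0%. Of the 32 probes 14 were shared with normexp.

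The red blood cell median was 1.95 with normexp, 2.29 with quantile scaling, 2.30 with the limit on dim signals and 0.71 with files as recorded. The interferon median was 0.21 with normexp, 0.18 with files as recorded and 0.25 with spots of either sign. The cerebellum list median was -0.25 with the limit on dim signals, -0.10 with spots of either sign and -4.90 with files as recorded, and that of choroid plexus -2.95 with files as recorded. The ependyma median turned to 0.035 with spots of either sign, and that of deep cortical layers to -0.037 with normexp. With normexp, 95 values of named genes were classed as moved and 113 as the same. With median scaling these counts were 71 and 143, and with quantile scaling 53 and 155. Of the list medians, 12 moved with normexp, 1 reversed and 29 stayed the same. With median scaling 16 moved and 26 stayed the same, and with quantile scaling 11 and 31. Many values of single genes therefore depend on the processing. Apart from files as recorded, the cause of these shifts was not tested.

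With files as recorded, which set a cerebellum array against a cortex array, medians turned to -0.95 for meningeal fibroblasts, -0.71 for myelin, -0.24 for deep cortical layers, 2.01 for olfactory bulb, 1.08 for dopamine and noradrenaline, 2.47 for neuropeptides and 0.055 for the ribosome. So did the values of Tnnt2 (-1.07), Fmod (-1.50), Cpz (-1.54), Ptgds (-1.34), Igf2 (-1.87), Aqp1 (-3.16), Nupr1 (-0.51), Ogn (-1.38), RT1-Bb (-0.89), RT1-Da (-0.83), Rftn1 (0.36) and S100a9 (1.35). Signals near background limit the dimmest probes, whose spots differ most.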

Other observations

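Growth hormone (Gh1), a pituitary gene, gave 28.7 on the control array, where it was well above background, and 4.03 on the depressive array, where it was not. Mdfic gave 21.9 and 86.9, with the control array not well above background. Lists not described above lay near 0: striatal projection neuron genes had a median of 0.06 (5 of 8 above 0), circadian clock genes -0.03 (6 of 15 above 0), heat shock and unfolded protein genes -0.04 (2 of 12 above 0) and cholesterol synthesis genes -0.06 (2 of 15 above 0). Skeletal muscle genes gave -0.06 (3 of 9 above 0), newborn neuron genes -0.07 (1 of 6 above 0), cell division genes 0.04 (4 of 8 above 0), pituitary genes -0.04 (1 of 3 above 0), and plasma and acute phase genes -0.03 (4 of 9 above 0). The same-sign rule leaves out many genes near 0. Without it the heat shock median was -0.02 (9 of 22 above 0) and the cholesterol synthesis median -0.02 (6 of 27 above 0). The plasma and acute phase median was then 0.02 (7 of 11 above 0).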
